A study of Mus musculus with 4 samples.

Results

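Nuclear genes that copy and transcribe mitochondrial DNA were compared between natural killer (NK) cells of control mice and of mice with targeted beta subunits of GA-binding protein (GABP), a transcription factor whose protein was not measured here. The set holds 9 genes, found by symbol among the 37310 genes of the deposited tables, and all 9 passed the filter on low counts. They are the regulators and transcription factors Nrf1, Tfam, Tfb1m and Tfb2m, the RNA polymerase Polrmt, the DNA polymerase subunits Polg and Polg2, the single-strand binding protein Ssbp1 and the protease Lonp1. The cells were sorted as CD3e-NK1.1+CD49b+ from bone marrow of mice of the C57BL/6 strain, 6 to 8 weeks old. Ctrl denotes littermate controls, whose genotype the labels name only as Ctrl, and dKO denotes Gabpb1l-/-Gabpb2-/- mice, in which Gabpb2 and the long form of Gabpb1 are missing. Each group had 2 biological replicates, numbered 1 and 2, and whether the loss is limited to a cell type is not given in the sources used here. Libraries followed Smart-seq2, which amplifies full-length cDNA.

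Mitochondria carry a small circular genome that encodes core subunits of the respiratory chain, while every protein needed to copy and transcribe it comes from the nucleus. Polrmt starts at mitochondrial promoters with Tfam, which bends and packages the DNA, and Tfb2m, which helps to open the helix. Polg, with its accessory subunit Polg2, copies the DNA while Ssbp1 covers the exposed strand, and Lonp1 degrades proteins of the matrix, Tfam among them. Nrf1 (nuclear respiratory factor 1) and GABP are textbook activators of these nuclear genes, and the promoters of Tfam, Tfb1m and Tfb2m are known GABP targets in other cells. GABP pairs the DNA-binding Gabpa with a beta subunit from Gabpb1 or Gabpb2, and the long beta forms allow a tetramer.

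On GRCm38 (GENCODE release M21, not the build of the counts) the plus strand holds Nrf1 (ENSMUSG00000058440.7) at chr6:30047988-30153458 and Ssbp1 (ENSMUSG00000029911.8) at chr6:40471352-40484700. The minus strand holds the factors Tfam (ENSMUSG00000003923.8) at chr10:71225464-71238280, Tfb1m (ENSMUSG00000036983.6) at chr17:3519256-3557781 and Tfb2m (ENSMUSG00000026492.5) at chr1:179528055-179546267, with the polymerase Polrmt (ENSMUSG00000020329.6) at chr10:79736123-79746581. It also holds Polg (ENSMUSG00000039176.10) at chr7:79446231-79466362, Polg2 (ENSMUSG00000020718.6) at chr11:106768253-106779537 and Lonp1 (ENSMUSG00000041168.8) at chr17:56614297-56626887. None of the 9 genes shares a chromosome with Gabpb1 (chromosome 2), Gabpb2 (chromosome 3) or Gabpa (chromosome 16).

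Promoter sequences show where GABP-type and NRF1-type letters lie in the genes of this set. Windows from 250 bases before to 50 after the annotated start came from RefSeq on GRCm38.p6 and were matched by symbol for all 9 genes, with 2 windows for Nrf1. Both strands were searched for CCGGAAGT, the core that GABP prefers, for its inner letters CGGAAG, for GCATGCGC, part of the NRF1 palindrome, and for TGCGCA, its shorter part. CCGGAAGT contains CGGAAG, and GCATGCGC and TGCGCA can overlap. Below are Tfam and Polg, which hold the full GABP core, Tfb2m and Polrmt, which hold the NRF1 letters, and Lonp1, which had the largest difference between the groups. Each is printed 5′ to 3′ on the strand of its gene, here the minus strand for every gene shown, with matches in capitals. In the order printed they lie at chr10:71237995-71238294, chr7:79466224-79466523, chr1:179546227-179546526, chr10:79746532-79746831 and chr17:56626854-56627153.
Tfam: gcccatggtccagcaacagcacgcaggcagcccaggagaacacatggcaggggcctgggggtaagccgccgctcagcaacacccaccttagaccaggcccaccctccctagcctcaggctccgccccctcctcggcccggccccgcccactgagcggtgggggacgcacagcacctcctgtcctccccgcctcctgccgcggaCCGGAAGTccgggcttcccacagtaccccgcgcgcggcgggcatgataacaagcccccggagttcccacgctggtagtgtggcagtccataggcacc
Polg: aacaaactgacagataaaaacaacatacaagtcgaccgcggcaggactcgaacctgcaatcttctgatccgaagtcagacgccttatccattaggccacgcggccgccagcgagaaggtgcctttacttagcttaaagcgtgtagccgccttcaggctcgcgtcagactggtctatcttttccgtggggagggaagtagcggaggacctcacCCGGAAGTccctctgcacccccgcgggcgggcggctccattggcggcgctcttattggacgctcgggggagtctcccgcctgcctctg
Tfb2m: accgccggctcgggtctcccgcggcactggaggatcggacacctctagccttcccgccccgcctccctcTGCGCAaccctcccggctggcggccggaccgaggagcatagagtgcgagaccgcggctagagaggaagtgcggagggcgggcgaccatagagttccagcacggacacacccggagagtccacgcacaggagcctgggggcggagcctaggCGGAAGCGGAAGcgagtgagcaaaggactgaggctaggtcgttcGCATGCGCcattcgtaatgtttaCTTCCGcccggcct
Polrmt: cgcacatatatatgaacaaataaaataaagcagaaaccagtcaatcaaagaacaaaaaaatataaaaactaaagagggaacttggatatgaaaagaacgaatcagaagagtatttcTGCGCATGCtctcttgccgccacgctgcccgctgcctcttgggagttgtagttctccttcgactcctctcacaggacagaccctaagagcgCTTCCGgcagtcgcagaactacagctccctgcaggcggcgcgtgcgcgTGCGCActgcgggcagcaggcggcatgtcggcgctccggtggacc
Lonp1: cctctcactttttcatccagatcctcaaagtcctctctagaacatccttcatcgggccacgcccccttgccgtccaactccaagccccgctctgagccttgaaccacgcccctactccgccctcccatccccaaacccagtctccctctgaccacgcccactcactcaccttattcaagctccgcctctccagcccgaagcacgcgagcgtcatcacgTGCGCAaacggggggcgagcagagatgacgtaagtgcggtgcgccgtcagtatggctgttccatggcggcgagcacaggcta

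CCGGAAGT was found in 2 of the 9 genes, Tfam and Polg, against 3.89% of all 32851 promoter windows in the table. In Tfam it spans bases -47 to -40 from the start, and in Polg -38 to -31. The inner CGGAAG was found in 6 of the 9 genes (also in Tfb2m, Polrmt, Polg2 and Ssbp1), against 16.9% of all windows. In Tfb2m it occurred 3 times, 2 of them side by side from -31 to -20. GCATGCGC was found in Tfb2m (14 to 21 bases after the start) and Polrmt (-133 to -126), against 2.71% of windows, and TGCGCA in Tfb2m, Polrmt and Lonp1, against 7.76%. GC content ran from 46.3% to 77.0% over the 10 windows of the set, and the shares were not matched on it. None of these letter strings was in the windows of Tfb1m or Nrf1. Only exact matches were searched, so absence of a string does not mean absence of a GABP-type or NRF1-type site. A match is a string of letters and was not tested for binding.

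Gene counts summed to between 30233870 and 34724516 per library, and between 15921 and 19450 genes had at least 1 count, with both dKO libraries above both Ctrl libraries in genes detected. Reads outside annotated genes made up 18.1% and 21.5% of counted reads in Ctrl 1 and Ctrl 2, and 23.8% and 24.3% in dKO 1 and dKO 2. All 15 NK cell markers were detected, among them Ncr1 and Klrb1c. Gabpb2 had 1244 and 1009 counts in Ctrl and 85 and 86 in dKO, and it fell by 3.61 on the log2 scale (SE 0.26, edgeR adjusted p = 0.00126). Xist, transcribed from the inactive X chromosome of females, had 6066 and 6430 counts in Ctrl and 2 and 9 in dKO, while Ddx3y on the Y chromosome had 0 and 0 counts in Ctrl and 8933 and 6757 in dKO. The labels give no sex, and genotype and these markers cannot be told apart in any comparison here.

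None of the 9 genes passed edgeR's quasi-likelihood test at an adjusted p of 0.05, where 0.611% of the 13904 tested genes did. At an unadjusted p under 0.05 the count was 2 of 9 (Lonp1 and Polg, both higher in dKO), against 10.6% of all tested genes. With DESeq2, Lonp1 alone of the 9 passed (adjusted p = 0.0356), and it also passed in edgeR without the count filter (adjusted p = 0.0322). Both settings passed more genes of all kinds, 398 of 13904 with DESeq2 and 559 of 23322 without the filter. The dKO libraries lay above both Ctrl libraries in 4 of the 9 genes (Lonp1, Polg, Polg2 and Tfb2m) and below both in 0, where 21.7% of all tested genes lay above and 19.9% below. The log2 fold change of dKO minus Ctrl was positive in 6 and negative in 3, with a median of 0.24, beside 0.01 over all tested genes. Levels below are CPM, meaning counts scaled to a common library size after TMM normalisation. In bulk RNA, a change in the share of cells that make a transcript and a change in RNA per cell cannot be told apart.

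**Figure D1:**
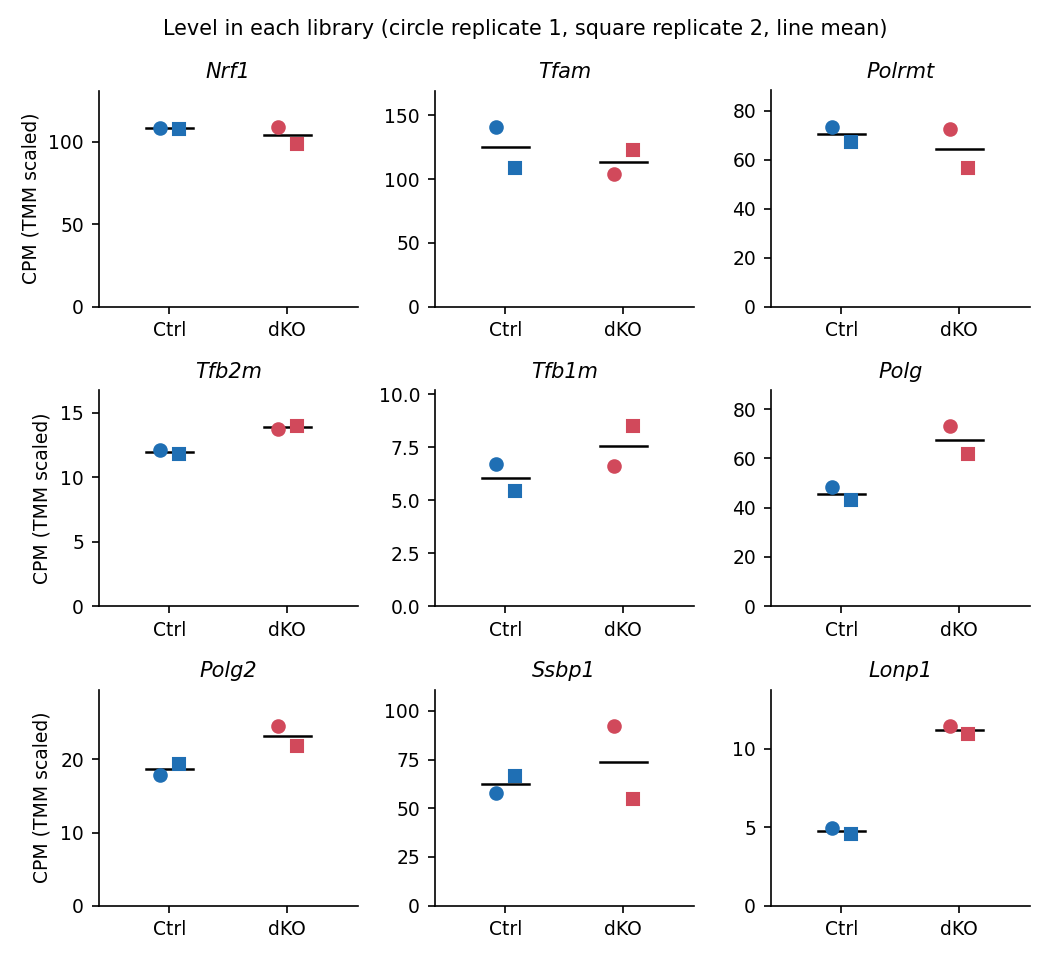
Level of each of the 9 genes in CPM (vertical axes from 0, a scale per gene) in the Ctrl and dKO libraries, with circles for replicate 1, squares for replicate 2 and a line at the group mean (n = 2). Lonp1 was at 4.96 and 4.58 CPM in the Ctrl libraries and 11.5 and 10.9 CPM in the dKO libraries, while the libraries of Nrf1, Tfam, Polrmt, Tfb1m and Ssbp1 overlapped between groups.

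Nrf1, the regulator of many respiratory genes, had the smallest difference of the set. It was at 108.4 and 107.5 CPM in Ctrl, against 109.1 and 98.4 CPM in dKO. The highest library was dKO 1 and the lowest dKO 2, so the groups overlapped. Its log2 fold change was -0.06 (SE 0.16, 95% interval -0.42 to 0.31, edgeR adjusted p = 0.948). The interval thus runs from 0.746 to 1.24 times the Ctrl level.

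Tfam, the DNA-packaging transcription factor and a classical GABP target, was at 141.2 and 108.4 CPM in the Ctrl libraries and 104.2 and 123.1 CPM in the dKO libraries. The Ctrl libraries differed from each other by more than the group means of 124.8 ± 23.2 and 113.7 ± 13.3 CPM (SD, n = 2) differed, and the groups overlapped. The log2 fold change was -0.13 (SE 0.19, edgeR adjusted p = 0.878). Its 95% interval ran from 0.674 to 1.23 times the Ctrl level, so it includes a lower level, no difference and a higher level. Without Ctrl replicate 1 the sign of the Tfam difference turned (0.066 on the log2 scale).

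Polrmt, the mitochondrial RNA polymerase, was at 73.6 and 67.1 CPM in Ctrl, against 72.4 and 56.6 CPM in dKO. Only dKO 2 lay below both Ctrl libraries, and dKO 1 lay between them. The log2 fold change was -0.12 (SE 0.19, 95% interval -0.56 to 0.31, edgeR adjusted p = 0.891), and it was 0.041 without dKO replicate 2.

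The paralogous factors Tfb1m and Tfb2m are related to rRNA dimethylases. Tfb1m modifies the small ribosomal RNA of mitochondria, and Tfb2m acts with Polrmt in initiation. Tfb2m was at 12.1 and 11.8 CPM in the Ctrl libraries and 13.8 and 13.97 CPM in the dKO libraries. The groups did not overlap, since replicates differed by at most 1.02-fold, yet the difference was small (log2 fold change 0.21, SE 0.25, edgeR adjusted p = 0.843). On the length-scaled TPM of RSEM the Tfb2m groups did overlap, at 44.6 and 53.3 in Ctrl and 64.3 and 49.98 in dKO. Tfb1m was at 6.73 and 5.42 CPM in Ctrl, against 6.63 and 8.50 CPM in dKO, so dKO 1 lay between the Ctrl libraries. It had a log2 fold change of 0.32 (SE 0.32, 95% interval -0.43 to 1.06, edgeR adjusted p = 0.814). The gene span of Tfb1m, introns included, overlaps that of Tiam2 on the opposite strand by 12089 bases on GRCm38. Tiam2 had 1037 and 758 counts in Ctrl and 387 and 516 in dKO, both below the Ctrl libraries. The interval of Tfb1m is the widest of the set, and it includes both no difference and a level 2.09 times that of Ctrl.

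Polg, the catalytic subunit of the mitochondrial DNA polymerase, was higher in both dKO libraries without passing the test. It was at 48.4 and 43.1 CPM in the Ctrl libraries and 73.2 and 61.9 CPM in the dKO libraries, or 45.7 ± 3.76 against 67.5 ± 7.97 CPM (SD, n = 2). The gap between the groups exceeded the gap between replicates in each of them. The log2 fold change was 0.56 (SE 0.19, 95% interval 0.13 to 0.99, edgeR unadjusted p = 0.0166, adjusted p = 0.320). Rounded RSEM expected counts gave 0.57. Polg overlaps Fanci on the opposite strand by 4034 bases on GRCm38, and Fanci counts were 803 and 1009 in Ctrl and 877 and 854 in dKO, with no separation of the groups.

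Polg2, the accessory subunit that holds Polg on DNA, was at 17.9 and 19.4 CPM in Ctrl, against 24.6 and 21.9 CPM in dKO. Both dKO libraries were higher, but the difference was 1.25-fold (log2 fold change 0.32, SE 0.22, 95% interval -0.19 to 0.82, edgeR adjusted p = 0.699). Polg2 shares 542 bases with the opposite-strand gene Milr1, whose counts of 184 and 129 in Ctrl and 167 and 182 in dKO did not separate the groups. Ssbp1, which coats single-stranded mitochondrial DNA, was at 57.8 and 66.7 CPM in the Ctrl libraries and 92.4 and 54.7 CPM in the dKO libraries. The dKO libraries held both the highest and the lowest value and differed from each other by 1.69-fold, the widest replicate gap of the set. Its log2 fold change of 0.24 (SE 0.26, edgeR adjusted p = 0.821) became -0.19 without dKO replicate 1.

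Lonp1, the matrix protease that also binds mitochondrial DNA, had the largest difference of the 9 genes. Its raw counts were 169 and 152 in Ctrl and 369 and 330 in dKO. That is 4.96 and 4.58 CPM against 11.5 and 10.9 CPM, or 4.77 ± 0.271 and 11.2 ± 0.397 CPM (SD, n = 2). The groups did not overlap, but 2 libraries a group measure the spread between replicates poorly. The 2.35-fold higher level in dKO (log2 fold change 1.23, SE 0.29, 95% interval 0.55 to 1.91) had an unadjusted p = 0.00305 and an adjusted p = 0.156 in edgeR. Over the 13 alternative analyses the log2 fold change stayed between 1.17 and 1.43 and the adjusted p between 0.0322 and 0.496. No annotated gene overlaps Lonp1 on GRCm38.

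Some other measures moved with the groups beside the higher Lonp1 and Polg levels. Of 12 T cell markers, 2 passed in edgeR as lower (Cd3e, adjusted p = 0.0079, and Trac, adjusted p = 0.0207), and the median log2 fold change of the 12 was -1.40. Both dKO libraries lay below both Ctrl libraries in 9 of the 12, beside 19.9% of all tested genes, and none was at 0 in all libraries. Their summed level was 1194 to 1244 CPM in Ctrl and 962 to 1016 CPM in dKO, with Cd3e at 47.5 and 52.5 CPM against 8.90 and 12.2 CPM. A sum follows its most abundant genes, and it was not read as a share of T cells. The 15 NK cell markers summed to 18996 to 19252 CPM in Ctrl and 15911 to 15973 CPM in dKO, and 7 of the 15 were below both Ctrl libraries in both dKO libraries. Summed markers of B cells, neutrophils and their precursors, monocytes and macrophages, erythroid cells, and basophils and mast cells overlapped between the groups. In single markers, all 10 of B cells had a negative log2 fold change (median -0.54, 3 at an unadjusted p under 0.05 in edgeR), and 4 of the 10 lay below both Ctrl libraries. Of 13 neutrophil and precursor markers, 10 were negative (median -0.29, 4 lower at an unadjusted p under 0.05 in edgeR), and 4 lay below both Ctrl libraries. At that same cut 7 of the 12 T cell markers and 3 of the 15 NK cell markers were lower. Of all tested genes, 5.34% were lower at that cut. The part of these marker levels, of the number of genes detected and of reads outside genes in the Lonp1 and Polg differences was not tested.

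**Figure D2:**
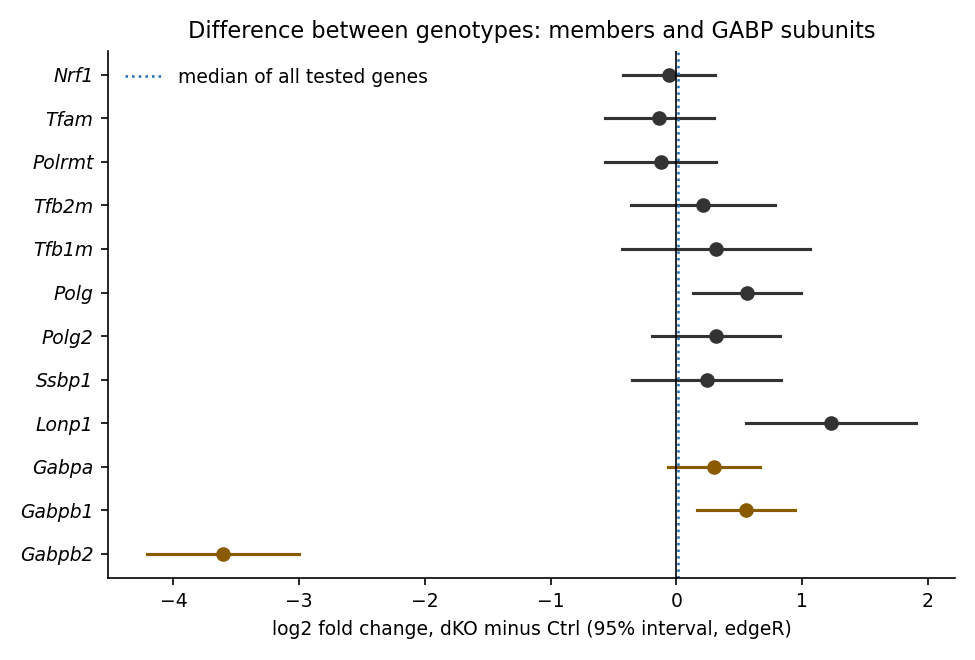
Log2 fold change (horizontal axis, dKO minus Ctrl) with its 95% interval from edgeR for the 9 genes in black and the 3 GABP subunits in brown, with a dotted line at the median of all tested genes (0.01). Within the set the intervals of Polg (0.13 to 0.99) and Lonp1 (0.55 to 1.91) lie above 0, and those of the other 7 genes include 0.

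**Figure D3:**
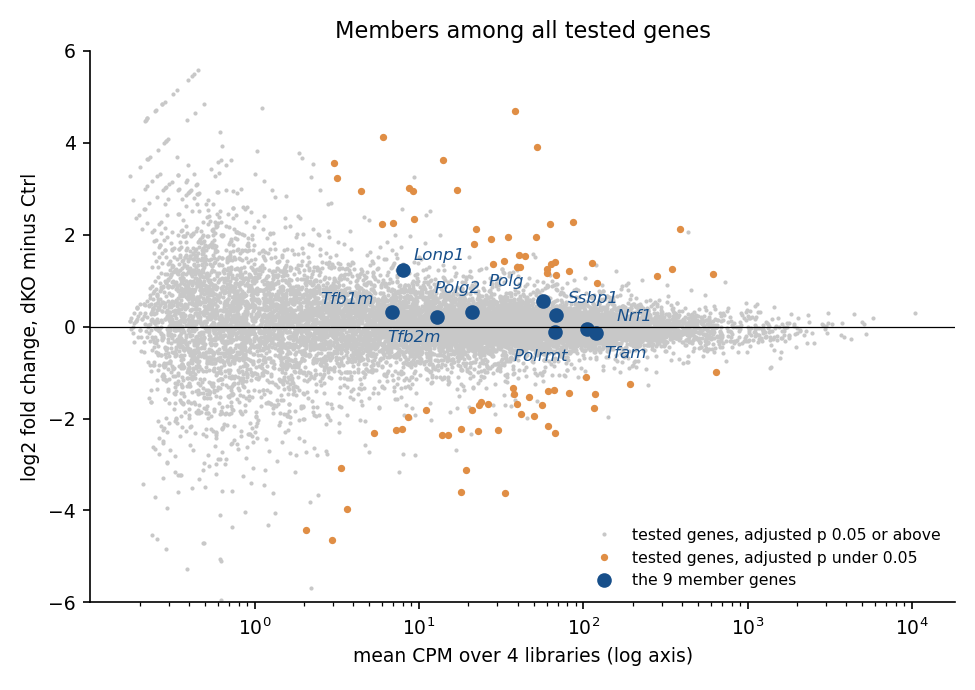
Log2 fold change (vertical axis) against mean CPM over the 4 libraries (horizontal log axis) for the tested genes, with genes past an adjusted p of 0.05 in orange and the 9 genes in blue, and with 43 genes outside the vertical range not drawn. The blue points lie inside the grey cloud, Lonp1 toward its upper edge.

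Replicates of the same group varied least for Tfb2m (SD 0.0198 in log2 CPM) and most for Ssbp1 (0.390), beside a median of 0.23 over all tested genes. Lonp1, with 0.063, was also among the genes with close replicates. Levels per transcript length were read from RSEM's TPM, whose order differed between libraries for the 5 most abundant genes. Tfam was the most abundant in 3 of 4 libraries, with 218 and 167 TPM in Ctrl and 172 and 201 TPM in dKO, and Ssbp1 came above it in dKO 1 (175 TPM). Polg, Nrf1 and Tfb2m followed at means of 67.4, 66.7 and 53.0 TPM over the 4 libraries, and neighbours in this order overlapped from Tfam down to Tfb2m. The order of Polg and Nrf1 turned with the group, since Nrf1 was above Polg in both Ctrl libraries (67.8 and 68.6 against 60.7 and 38.1 TPM) and below it in both dKO libraries (71.4 and 59.1 against 109.95 and 60.8 TPM). Below them Polrmt (33.7 TPM), Polg2 (21.8 TPM), Tfb1m (10.1 TPM) and Lonp1 (3.69 TPM) kept ranks 6 to 9 in each of the 4 libraries, and no 2 neighbours among them overlapped. The catalytic subunit Polg exceeded its partner Polg2 by 3.07-fold and 1.86-fold in Ctrl and 4.11-fold and 3.03-fold in dKO on the TPM scale. Tfb2m exceeded Tfb1m by 4.03-fold to 6.78-fold over the 4 libraries, with no separation of the groups.

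**Figure D4:**
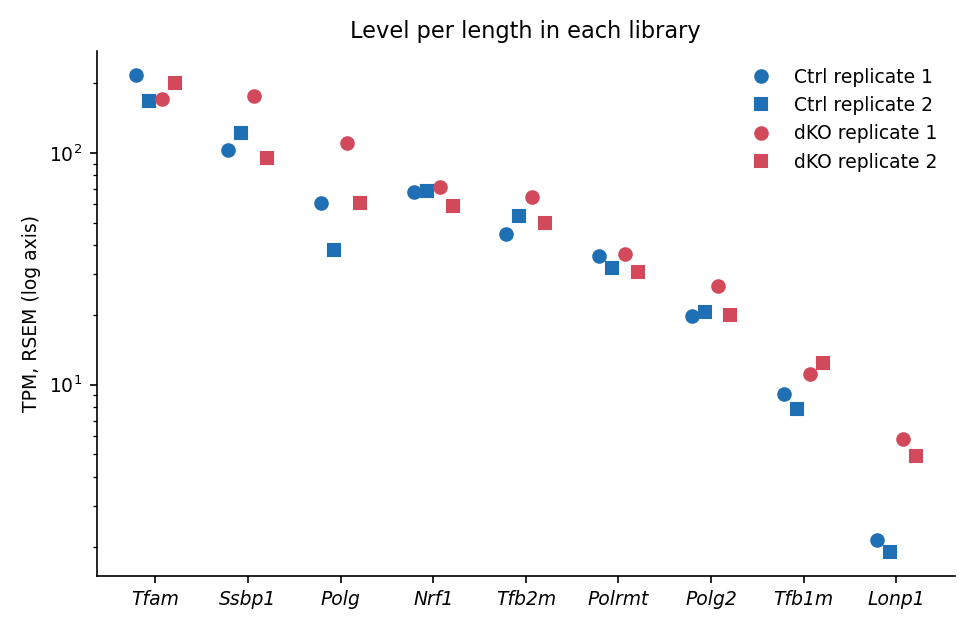
TPM (vertical log axis) of the 9 genes in each library, ordered by the mean over the 4 libraries, with Ctrl in blue, dKO in red, circles for replicate 1 and squares for replicate 2. Tfam is at 167 to 218 TPM and Lonp1 at 1.90 to 5.81 TPM, and Polg varies the most between the Ctrl libraries (60.7 and 38.1 TPM).

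Other genes of the pathway were read from the same fit, from lists chosen with earlier results of these data known. At an unadjusted p under 0.05 in edgeR, 5.24% of all tested genes were higher and 5.34% lower in dKO, beside which the counts below are to be read. Of 21 tested genes of mitochondrial DNA replication and nucleotide supply, 0 passed in edgeR (0 higher, 3 lower at an unadjusted p under 0.05), and the median log2 fold change was 0.01. The 3 with the smallest p were nuclease and topoisomerase genes with lower values in dKO. Exog, a nuclease that acts on mitochondrial DNA ends, was at 22.2 and 25.3 CPM in Ctrl, against 11.5 and 13.1 CPM in dKO (log2 fold change -0.95 with an SE of 0.23, edgeR adjusted p = 0.167). Exog passed with DESeq2 (adjusted p = 0.0279) and without the count filter (adjusted p = 0.0297). Dna2, a helicase and nuclease of nucleus and mitochondria, had a log2 fold change of -1.18 (SE 0.35, edgeR adjusted p = 0.268). Top1mt, the mitochondrial topoisomerase, had -0.72 (SE 0.28, edgeR adjusted p = 0.417).

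Of 26 tested genes of mitochondrial transcription elongation, termination and RNA processing, 0 passed in edgeR, 2 were higher and 3 lower at an unadjusted p under 0.05, and the median was -0.03. Trmt10c, a subunit of mitochondrial RNase P, was at 106.0 and 95.1 CPM in the Ctrl libraries and 154.1 and 135.8 CPM in the dKO libraries, where the files list it as Rg9mtd1 (edgeR adjusted p = 0.280). Lrpprc, which stabilises mitochondrial mRNA, was at 130.7 and 110.5 CPM in Ctrl, against 88.2 and 81.4 CPM in dKO (adjusted p = 0.322 in edgeR). Pnpt1, the polynucleotide phosphorylase of mitochondria, had a log2 fold change of -0.56 (SE 0.21, edgeR adjusted p = 0.391). These 3 genes, picked for their small p, had groups that did not overlap, Trmt10c higher and the others lower in dKO. Over the 26 genes, both dKO libraries lay above both Ctrl libraries in 4 and below in 5. Of all tested genes, 21.7% lay above and 19.9% below.

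Among 20 mitochondrial proteases and chaperones, the class that shares protein quality control with Lonp1, 0 passed in edgeR, 0 were higher and 1 lower at an unadjusted p under 0.05, and the median was -0.01. The chaperonin gene Hspd1 (log2 fold change -0.47, SE 0.20), the prohibitin gene Phb (-0.33, SE 0.16) and the chaperone gene Hspa9 (-0.27, SE 0.18) had the smallest p, with edgeR adjusted p of 0.463, 0.552 and 0.686. The largest positive value in that list was 0.47, for Lactb at 26 to 45 counts per library (SE 0.69, 95% interval -1.12 to 2.06). It is below the 1.23 of Lonp1, but its interval includes 1.23, and no test of that difference was run. Of 19 tested nuclear regulators of mitochondrial genes, 0 passed as higher and 1 as lower in edgeR, namely Gabpb2, the targeted gene. At an unadjusted p under 0.05 in edgeR, 1 was higher and 2 lower (Gabpb2 included), and the median was -0.10. Gabpb1 was at 57.1 and 52.0 CPM in the Ctrl libraries and 81.2 and 79.4 CPM in the dKO libraries, and Gabpa at 81.6 and 80.8 against 101.5 and 98.4 CPM, neither past the threshold (adjusted p = 0.273 and 0.578 in edgeR). Gabpb1 counts do not separate its long form from other forms. Of the PGC coactivators that work with Nrf1 and GABP, named after their values were seen, Pprc1 was at 54.3 and 40.3 CPM in Ctrl, against 32.9 and 28.3 CPM in dKO (edgeR adjusted p = 0.356). Ppargc1a was at 3.96 and 6.81 CPM in the Ctrl libraries and 13.1 and 7.02 CPM in dKO (edgeR adjusted p = 0.518). The third of them, Ppargc1b, had overlapping groups at 14.9 and 15.1 CPM against 18.2 and 8.57 CPM (edgeR adjusted p = 0.927).

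The transcripts of the mitochondrial genome, the product of Polrmt, summed to 12499 and 11959 CPM in Ctrl and to 7537 and 17700 CPM in dKO, so the dKO libraries held the lowest and the highest value. Of 14 tested, 0 passed in edgeR (0 also at an unadjusted p under 0.05 and 0 with DESeq2), and mt-Cytb (adjusted p = 0.584), mt-Atp8 (0.684) and mt-Nd5 (0.743) had the smallest p.

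**Figure D5:**
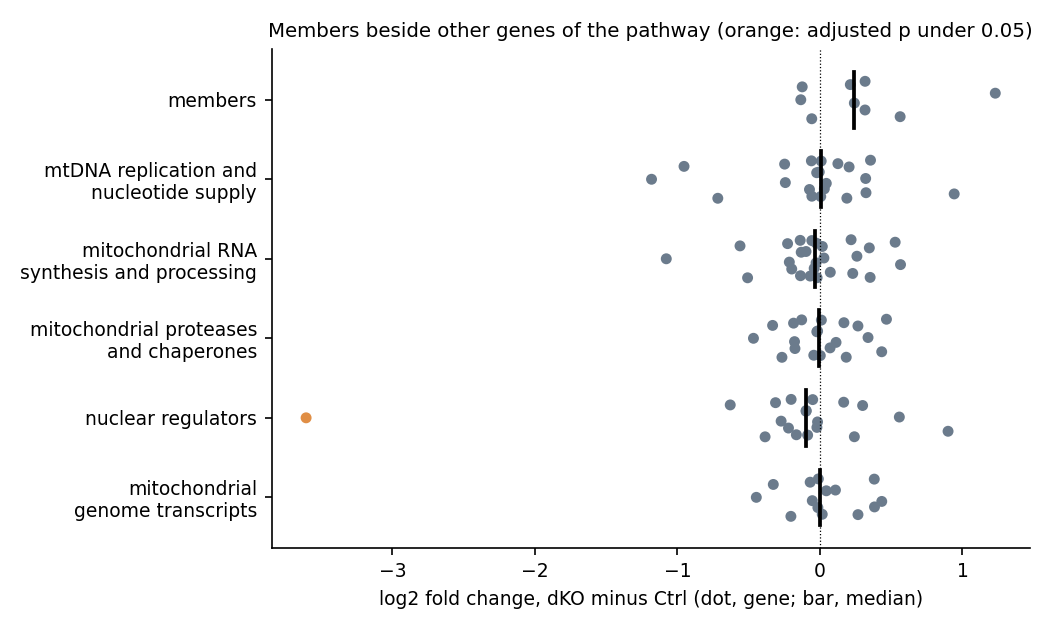
Log2 fold change (horizontal axis) of every tested gene (dots, height within a row without meaning) of the set and of 5 lists of other pathway genes, with a bar at each median. The median is 0.24 in the set and between -0.10 and 0.01 in the lists, and Gabpb2 at -3.61 is the only orange dot.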

How the data were processed

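Per the submitters' processing notes, the build was mm9 and the tools were TopHat2 2.1.1, HTSeq 0.6.1, RSEM 1.3.0, Trimmomatic 0.36, FastQC 0.11.5 and DESeq2 1.32.0. Which annotation release, strand setting and parameters applied is not given in the sources used here. Every library has a deposited table of whole-number gene counts and, per the file headers, an RSEM table of expected counts, TPM, FPKM and length. The deposited TPM served for levels between genes, and group values on that scale are given without a test. FPKM was not used. Rows that name no gene were left out (reads outside genes 18.1% to 24.3%, ambiguous reads 2.20% to 2.34%). The counts were about 2.05 to 2.07 times the RSEM expected counts (median over genes with more than 50 expected counts), so counting error may be larger than the counts alone give.

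Counts were tested with edgeR 4.0.16 (robust quasi-likelihood fit, TMM, filter for a minimum count of 10) in R 4.3.3 on all 4 libraries, with Benjamini-Hochberg adjustment over 13904 genes. The SE was taken from the F statistic (|log2 fold change| over its square root), and intervals use the test's degrees of freedom. The procedure was tested on simulated data. A high share of planted changes found was required only for rises larger than any in this set. Differences of the size seen here can therefore be missed. With 2 replicates a group, p-values rest on the spread edgeR shares across genes. Members, gene lists and tests were chosen with earlier results of these data known. The named genes are the 9 members, the GABP subunits and, per list, the genes that passed or else the 3 with the smallest p. Outside this rule the text names the 3 PGC coactivators, Lactb, marker genes and genes overlapping members. Alternatives were other scalings and filters, DESeq2 1.42.0, limma-voom (limma 3.58.1), a fit that is not robust, rounded RSEM counts, a replicate block and each library left out. Positions are GRCm38 (GENCODE release M21), not the build of the counts. Overlap lengths are between whole gene spans, introns included, so the overlap of exons can be shorter. Since strand is not stated, reads of overlapping genes on opposite strands may not be separable, which concerns Tfb1m, Tfb2m, Polg, Polg2 and Nrf1.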

Additional observations from a re-analysis of the deposited data

How the results depend on the processing

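The number of the 9 genes that passed was 0 as reported and 1 (Lonp1) with DESeq2 or without the count filter. Under the same 2 settings 1 gene of DNA replication and nucleotide supply passed (Exog) in place of 0. Over all tested genes 85 passed as reported, 559 without the filter, 148 with a stricter filter of 5 CPM in 2 libraries, 398 with DESeq2, and 73 to 187 with 1 library left out (187 without Ctrl replicate 2, 73 without dKO replicate 1). With 1 library left out, 5 to 8 of the 9 genes had groups that did not overlap, against 4 with all libraries, as fewer libraries leave less room to overlap. With each library left out in turn the log2 fold change ran (without Ctrl 1 for the highest Tfam value, dKO 2 for Polrmt and Nrf1, dKO 1 for the lowest Ssbp1 value) from -0.31 to 0.066 for Tfam, -0.31 to 0.041 for Polrmt, -0.13 to 0.013 for Nrf1 and -0.19 to 0.57 for Ssbp1, and these 4 changed sign without 1 library. The cause was not tested. Tfb1m, Tfb2m, Polg, Polg2 and Lonp1 kept a positive sign in all 13 alternatives. With the replicate number as a block, 0 of the 9 genes and 100 of all genes passed. Same-numbered libraries did not deviate together from their group means (r = -0.0957 across 13904 genes, which are not independent replicates). With 2 libraries a group, this cannot exclude a pairing. Under other scalings and filters the same 4 genes had groups that did not overlap (Lonp1, Polg, Polg2 and Tfb2m). RSEM counts also gave 4, with Tfb1m in place of Tfb2m. At 152 to 369 counts per library, Lonp1 is the gene of the set with the fewest counts beside Tfb1m (180 to 257).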

Other observations

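RSEM weights the length of a gene by the forms it assigns reads to, and that length differed between libraries for several genes named here, Gabpb1, Gabpb2, Pprc1, Ppargc1a and Polg among them. For Gabpb1 it was 1407 and 1707 bases in Ctrl 1 and Ctrl 2, and 1202 and 994 bases in dKO 1 and dKO 2. On the TPM scale Gabpb1 was at 74.6 and 58.1 in Ctrl and 151 and 166 in dKO, a wider gap than on the CPM scale. For Gabpb2 it was 4936 and 4717 bases in Ctrl and 5835 and 7274 bases in dKO, and for Pprc1 3743 and 2446 against 4033 and 4393 bases. For Polg the length was 1597 and 2309 bases in Ctrl and 1515 and 1917 bases in dKO, without separation of the groups. On the TPM scale Polg was at 60.7 and 38.1 in Ctrl and 109.95 and 60.8 in dKO, so that dKO 2 lay just above Ctrl 1, while CPM of the whole-number counts kept the groups apart. Forms of these genes were not counted here. Among the members, the ratio of whole-number counts to RSEM expected counts ran from 1.63 (Tfb2m) to 2.47 (Lonp1).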
